A study of Mus musculus with 12 samples.

Results

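Mural cells are the contractile and supporting cells of the vessel wall, smooth muscle cells on arteries and arterioles and pericytes on capillaries, and 10 transcriptional regulators known from these cells or from their embryonic precursors are described here: Myocd, Srf, Mef2c, Tbx18, Tbx2, Foxs1, Foxd1, Ebf1, Zic1 and Nr2f2. They were chosen by name, with earlier results of these data known, from 18193 genes that had a probe set of their own in the annotation used here. In all, 27 probe sets named 1 of the 10 and no other gene. For each gene the probe set with the highest mean over the 12 arrays gave the reported value, and the other probe sets served as a check. All 10 members passed the filter on low values, and each lay above 3.27, the median of all values, on 12 of 12 arrays.

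The arrays (Affymetrix Mouse Genome 430 2.0) measured RNA from small vessel fragments of cerebrum and cerebellum. The mice were C57BL/6 and 2 months old, and 3 lacked Notch3 while 3 were littermate controls, listed as wildtype. This gave 4 groups of 3 arrays: control cerebral, knockout cerebral, control cerebellar and knockout cerebellar. The design text names 3 mice of each genotype, so the replicates within a group are separate animals, and arrays of both regions with the same genotype and number were read as 1 mouse, although no label says so outright. No source used here describes the making of the line, the exons removed or the isolation of the fragments. A fragment preparation holds endothelial, mural and adhering cells together, so fewer mural cells and less RNA per mural cell cannot be told apart in any value below.

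Notch3 is a receptor of smooth muscle cells and pericytes; when a ligand on a neighbouring cell binds it, its intracellular part is released, enters the nucleus and activates genes with the DNA-binding protein RBPJ. Myocardin, the product of Myocd, is a coactivator that has no DNA target of its own and works through SRF, a factor that binds the CArG box in the promoters of contractile genes. The remaining members are DNA-binding factors of the MADS-box (Mef2c), T-box, forkhead, early B-cell factor, zinc-finger and nuclear receptor families, several of which mark the precursors of brain pericytes.

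The labels were first checked on Notch3 itself. Its log2 level was 11.32, 11.61 and 10.84 on the control cerebral arrays and 11.73, 12.02 and 11.78 on the control cerebellar arrays. On the knockout arrays it was 2.48, 2.48 and 3.15 in cerebral and 3.15, 3.58 and 2.48 in cerebellar fragments. All 6 knockout arrays lay far below all 6 control arrays, and 5 of the 6 lay under the median of all values. Array medians ranged from 3.24 to 3.30.

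In cerebral fragments 6 of the 10 members fell in the knockout, namely Tbx2, Foxs1, Myocd, Foxd1, Tbx18 and Zic1, and none rose. A gene is said to have fallen, risen or been called when its adjusted p was under 0.05 (limma, Benjamini-Hochberg over 11716 genes). Over all genes tested 6.38% were called in this comparison, 3.93% as lower. Lower genes made up 61.6% of the calls, and 51.0% of them with arrays centred on their medians and 52.0% with quantile normalization. In 9 of the 10 members every knockout array lay below every control array, which held for 14.3% of all genes tested. The median log2 change of the members was −0.72, beside −0.01 over all genes. Because the members were chosen with earlier results of these data known, such contrasts with all genes, here and below, are a description only.

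In cerebellar fragments 5 of the 10 members fell, the same genes without Zic1, and none rose. Over all genes 4.22% were called, 3.17% as lower. Again 9 of 10 members did not overlap, all lower in the knockout, against 11.7% of all genes. The members' median change was −0.61 and that of all genes 0.01. With both regions averaged, so that each mouse counted once, 5 members fell, the same 5 as in cerebellum, while over all genes 4.03% were called, 3% as lower. The plot of member levels by array shows the separation of the groups gene by gene.

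**Figure D1:**
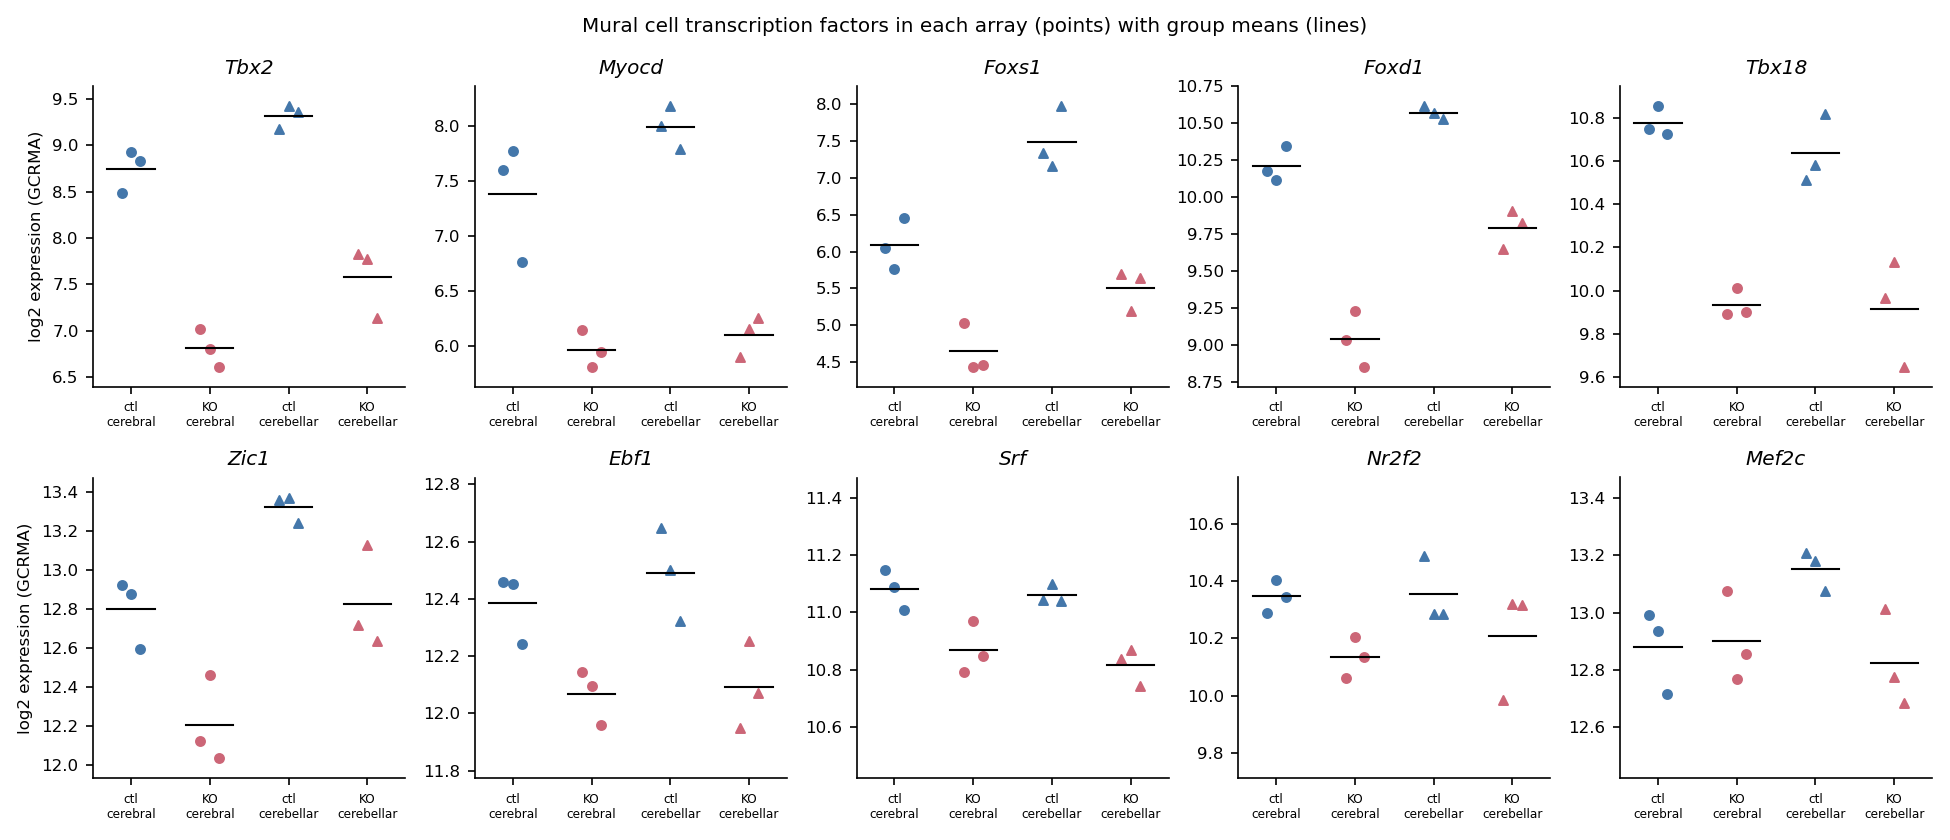
Log2 expression (y axis, a separate range for each gene) of the 10 members on each of the 12 arrays, by group (x axis, ctl for control and KO for knockout). Points are arrays, and the horizontal line is the mean of 3. Within a group each array is a separate mouse, and both regions were read as coming from the same 6 mice. The knockout arrays lie below the control arrays of the same region in 9 members in cerebral fragments, the exception being Mef2c, and in 9 in cerebellar fragments, the exception being Nr2f2.

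Among myocardin and the MADS-box factors it works with, only the coactivator Myocd was called, in both regions. Myocd (probe set 1425978_at) stood at 7.60, 7.78 and 6.76 on the control cerebral arrays and at 6.15, 5.81 and 5.95 on the knockout cerebral arrays. In cerebellum its values were 7.99, 8.18 and 7.79 in controls and 5.90, 6.16 and 6.25 in knockouts. The groups did not overlap in either region, and control cerebral replicate 3 was the lowest control. The log2 change was −1.41 (SE 0.23, adjusted p = 0.00547) in cerebral and −1.88 (SE 0.23, adjusted p = 0.000914) in cerebellar fragments. The knockout level was thus 37.6% of the control level (95% interval 26.4% to 53.6%) in cerebrum and 27.1% (19.0% to 38.6%) in cerebellum. Fitted on the 6 cerebral arrays alone, the same change had an adjusted p of 0.0652.

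Srf (1418255_s_at) encodes the factor through which myocardin acts. It read 11.15, 11.09 and 11.01 in control cerebral and 10.79, 10.97 and 10.85 in knockout cerebral fragments, and 11.04, 11.10 and 11.04 against 10.84, 10.87 and 10.74 in cerebellar ones. All 6 knockout arrays were below all 6 controls by a small margin. The changes of −0.21 (SE 0.06, adjusted p = 0.0842) and −0.25 (SE 0.06, adjusted p = 0.0659) did not pass the threshold. The 95% interval of the cerebral change ran from −0.35 to −0.07, and without knockout cerebral replicate 2 the change was −0.26 with an adjusted p of 0.0460. The second probe set of Srf gave −0.31 and −0.14, neither called.

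The Srf gene carries the element that SRF itself binds, and its promoter is printed for that reason. Promoters were taken from RefSeq (GRCm38.p6) as the 250 bases before the annotated start. They were searched on both strands for the CArG box, the MEF2 site and TGGGAA, the core bound by RBPJ, and no matches of different motifs overlapped. Entries matched 7 of the 10 members with 10 windows in all; Myocd, Tbx2 and Foxs1 were not matched. The window of Srf, chr17:46556163-46556412 on the minus strand, is given 5′ to 3′ with the CArG boxes in capitals.
Srf: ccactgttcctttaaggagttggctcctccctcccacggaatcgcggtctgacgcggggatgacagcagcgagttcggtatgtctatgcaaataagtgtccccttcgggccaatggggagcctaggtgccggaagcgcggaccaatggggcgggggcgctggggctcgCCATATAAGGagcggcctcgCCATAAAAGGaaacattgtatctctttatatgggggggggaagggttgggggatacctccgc
It held 2 CArG boxes, CCATATAAGG at 82 to 73 and CCATAAAAGG at 62 to 53 bases before the start. A CArG box was present in 1.47% of the 32851 promoter windows of the same length. No other window of the members held a CArG box, and none held a MEF2 site, which 1.69% of all windows did. A match is a match of letters and was not measured as binding here.

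Mef2c (1424852_at) encodes a MADS-box factor that cooperates with myocardin and is also made by endothelial cells, microglia and neurons. Its values were 12.99, 12.93 and 12.72 in control cerebral and 13.08, 12.77 and 12.86 in knockout cerebral fragments, which overlap. In cerebellum they were 13.21, 13.18 and 13.07 in controls and 13.01, 12.78 and 12.69 in knockouts, which do not. Neither change was called, at 0.02 (95% interval −0.22 to 0.26, adjusted p = 0.952) and −0.33 (−0.57 to −0.08, adjusted p = 0.149).

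The 5 probe sets of Mef2c differed in direction. The probe set 1421028_a_at read 8.66, 7.58 and 7.32 on the control cerebral arrays and 9.52, 8.93 and 9.19 on the knockout cerebral arrays. Here the knockout arrays were the higher ones, with no overlap. The change of 1.36 (SE 0.36) had an adjusted p of 0.0533, and in cerebellum it was 0.78 (adjusted p = 0.312) with overlapping groups. The 3 remaining probe sets gave −0.07, 0.37 and 0.07 in cerebral and −0.47, 0.03 and −0.32 in cerebellar fragments, none called. The level of Mef2c RNA in the knockout is therefore given only per probe set. Of 9 microglia markers tested 3 rose in knockout cerebral fragments (Tmem119 1.16, Trem2 1.13 and C1qa 1.01) and 0 in cerebellar ones. The list's summed level (log2 of the summed linear values) ranged from 15.78 to 16.25 in control and 16.42 to 16.88 in knockout cerebral arrays, and from 15.57 to 15.85 and 15.85 to 15.94 in cerebellar arrays. No microglia marker was at or under the median on all arrays. The call of Tmem119 was lost without control replicate 2 or knockout replicate 3 of the cerebral arrays (1.0 to 1.14, adjusted p 0.0536 to 0.0563). Those of Trem2 (0.84 to 1.26, adjusted p 0.0612 to 0.135) and C1qa (0.83 to 1.01, adjusted p 0.0568 to 0.0717) were lost without control replicate 1 or 2 or knockout replicate 1 or 3. The part of microglial RNA in the Mef2c values was not tested.

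Both T-box factors fell in both regions. Tbx2 (1422545_at) encodes a T-box repressor of the vessel wall and of cardiac muscle. It read 8.49, 8.93 and 8.83 on control cerebral arrays and 7.02, 6.80 and 6.61 on knockout cerebral arrays. In cerebellum the controls were at 9.18, 9.42 and 9.36 and the knockouts at 7.82, 7.78 and 7.14. The groups were separated by more than a log2 unit in both regions. The change was −1.94 (SE 0.19, adjusted p = 0.000182) in cerebral fragments, where the knockout level was 26.1% (95% interval 19.6% to 34.9%) of the control level. In cerebellar fragments it was −1.74 (SE 0.19, adjusted p = 0.000393), or 29.9% (22.4% to 39.9%). Counted from the lowest log2 change of the 11716 genes, Tbx2 was number 45 in cerebrum and number 53 in cerebellum.

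Tbx18 (1429974_at) marks pericytes and smooth muscle cells in brain vessels and is used to label both. Its values were 10.75, 10.85 and 10.72 in control cerebral and 9.89, 10.01 and 9.90 in knockout cerebral fragments. In cerebellum they were 10.51, 10.58 and 10.82 in controls and 9.97, 10.13 and 9.65 in knockouts. The SD was 0.07 in both cerebral groups, and no knockout array reached a control array. Tbx18 fell by 0.84 (SE 0.12, adjusted p = 0.00237) in cerebrum, to 55.9% of the control level (95% interval 46.5% to 67.1%). It fell by 0.72 (SE 0.12, adjusted p = 0.00659) in cerebellum, to 60.7% (50.5% to 72.9%). Fitted on the 6 cerebellar arrays alone the latter had an adjusted p of 0.0666. A second, dimmer probe set gave −0.98 (adjusted p = 0.0236) in cerebrum and −0.48 (adjusted p = 0.294) in cerebellum.

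The promoter of Tbx18 is shown because Notch3 acts through RBPJ; of the windows matched, only it and 1 of the 2 windows of Ebf1 held the RBPJ core. The window is chr9:87731261-87731510 on the minus strand, 5′ to 3′, with the match in capitals.
Tbx18: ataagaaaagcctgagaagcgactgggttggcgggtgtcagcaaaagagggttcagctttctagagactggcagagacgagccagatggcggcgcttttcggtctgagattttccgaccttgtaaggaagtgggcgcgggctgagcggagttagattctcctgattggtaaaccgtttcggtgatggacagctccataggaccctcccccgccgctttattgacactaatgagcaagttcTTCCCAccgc
TGGGAA lies there on the reverse strand, printed as TTCCCA, at 10 to 5 bases before the start. The core is short and was found in 21.6% of the 32851 windows. The members' 2 of 10 windows with it lie near that share, so the match does not set Tbx18 apart.

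The forkhead factors also fell in both regions. Foxs1 (1437820_at), a small forkhead gene known from pericytes and smooth muscle cells, read 6.05, 5.77 and 6.45 in control cerebral and 5.03, 4.44 and 4.46 in knockout cerebral fragments. In cerebellum it read 7.34, 7.16 and 7.97 in controls and 5.69, 5.19 and 5.64 in knockouts. No knockout array reached a control array of its own region, while knockout cerebellar and control cerebral arrays lay next to each other. The change was −1.44 (SE 0.26, adjusted p = 0.00843), or 36.8% of the control level (95% interval 24.8% to 54.6%), in cerebrum. In cerebellum it was −1.99 (SE 0.26, adjusted p = 0.00132), or 25.3% (17.0% to 37.4%). On mouse means Foxs1 changed by −1.71 (adjusted p = 0.0128), with an adjusted p of 0.0513 without control mouse 1, 0.0670 without knockout mouse 3 and 0.0580 with no filter on low values.

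Foxd1 (1418876_at) marks precursors that give rise to mural cells and stroma. It stood at 10.17, 10.12 and 10.35 in control cerebral and 9.03, 9.23 and 8.85 in knockout cerebral fragments. The cerebellar values were 10.62, 10.57 and 10.53 in controls and 9.65, 9.91 and 9.82 in knockouts. The groups were clear of each other in both regions, by a wider gap in cerebrum. Foxd1 fell by 1.18 (SE 0.10, adjusted p = 9.05e-05) in cerebrum, to 44.3% of the control level (95% interval 37.7% to 51.9%), which was the smallest adjusted p of the 10 members in that comparison. In cerebellum it fell by 0.78 (SE 0.10, adjusted p = 0.00164), to 58.2% (49.6% to 68.3%).

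Of Zic1, Ebf1 and Nr2f2 only Zic1 was called, in cerebral fragments. Zic1 (1439627_at), a zinc-finger factor made by brain mural cells, meninges and cerebellar granule neurons, read 12.92, 12.88 and 12.59 in control cerebral and 12.12, 12.46 and 12.03 in knockout cerebral fragments. In cerebellum it read 13.36, 13.37 and 13.24 in controls and 12.72, 13.13 and 12.64 in knockouts. The arrays did not overlap in either region, and knockout replicate 2 was the knockout array nearest the controls in both. Zic1 fell by 0.59 (SE 0.15, adjusted p = 0.0442) in cerebrum, to 66.3% of the control level (95% interval 52.7% to 83.5%). The cerebellar change was −0.50 (SE 0.15, adjusted p = 0.105).

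The cerebral call of Zic1 was near the threshold. It was lost without control replicate 1 (change −0.53, adjusted p = 0.139) or 2 (−0.55, 0.119) and without knockout replicate 1 (−0.55, 0.134) or 3 (−0.51, 0.153). It was also lost with arrays centred on their medians (adjusted p = 0.0662) and with quantile normalization (adjusted p = 0.0511). The same held with no filter on low values (adjusted p = 0.0875) and for a fit on the cerebral arrays alone (adjusted p = 0.113). In cerebellum a call appeared without knockout replicate 2, with a change of −0.65 and an adjusted p of 0.0346. The second probe set of Zic1 gave −0.57 (adjusted p = 0.0353) in cerebrum and −0.34 (adjusted p = 0.240) in cerebellum.

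Ebf1 (1416301_a_at), a factor of pericytes, fat precursors and B cells, read 12.46, 12.45 and 12.24 in control cerebral and 12.14, 12.09 and 11.96 in knockout cerebral fragments. In cerebellum the values were 12.65, 12.50 and 12.32 against 11.95, 12.25 and 12.07. Knockouts were below controls in both regions by a small margin. The changes were −0.32 (95% interval −0.55 to −0.08, adjusted p = 0.116) and −0.40 (−0.64 to −0.16, adjusted p = 0.0710), not called; without control cerebellar replicate 3 the cerebellar change was −0.48 with an adjusted p of 0.0480. The 3 other Ebf1 probe sets tested gave −0.25, −0.22 and −0.19 in cerebrum and −0.27, −0.01 and −0.11 in cerebellum.

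Nr2f2 (1416159_at) encodes COUP-TFII, a nuclear receptor best known for setting venous identity in endothelium. Its values were 10.29, 10.40 and 10.35 in control cerebral and 10.06, 10.20 and 10.13 in knockout cerebral fragments, which do not overlap. In cerebellum they were 10.49, 10.29 and 10.29 in controls and 9.99, 10.32 and 10.32 in knockouts, which do. The changes of −0.21 (95% interval −0.43 to 0.00, adjusted p = 0.249) and −0.15 (−0.36 to 0.07, adjusted p = 0.519) were not called. The 5 other probe sets ranged from −0.64 to 0.00 in cerebrum and from −0.80 to 0.01 in cerebellum, none called. Of 8 venous endothelial markers tested, Nr2f2 being 1 of the list, 0 were called in either region.

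**Figure D2:**
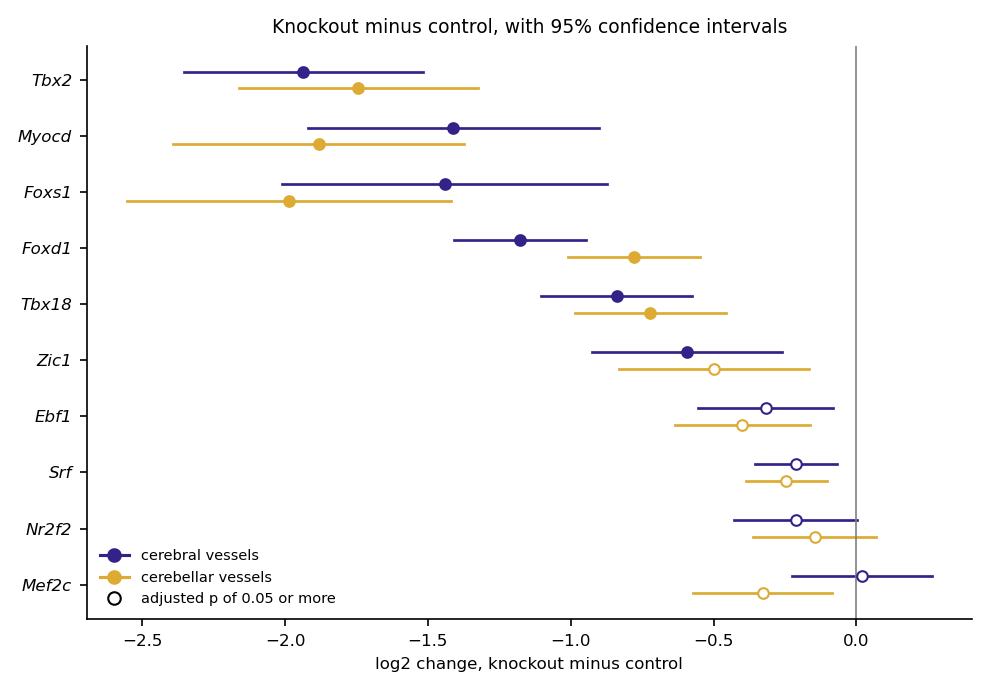
Log2 change, knockout minus control (x axis), of each member (y axis) in cerebral and cerebellar fragments; points are the limma estimates, open where not called, bars their 95% intervals, and the vertical line marks no change. Tbx2, Foxs1, Myocd, Foxd1 and Tbx18 lie at −0.72 or lower in both regions, whereas Mef2c lies at 0.02 in cerebral and −0.33 in cerebellar fragments.

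Tbx2 and Foxd1 were called in all 3 knockout comparisons under every alternative run. With the filter at the 75th percentile of all values (8.45), Tbx2 was kept only through control arrays, where it was high, so that run adds no support for Tbx2. Tbx18, Foxs1 and Myocd were called within both regions in every run that left out 1 array. On mouse means the second Tbx18 probe set gave −0.73 with an adjusted p of 0.0788. On mouse means Tbx2 changed by −1.84 (SE 0.16, adjusted p = 0.00350), Myocd by −1.65 (SE 0.18, adjusted p = 0.00691), Foxd1 by −0.98 (SE 0.08, adjusted p = 0.00226) and Tbx18 by −0.78 (SE 0.09, adjusted p = 0.00794).

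**Figure D3:**
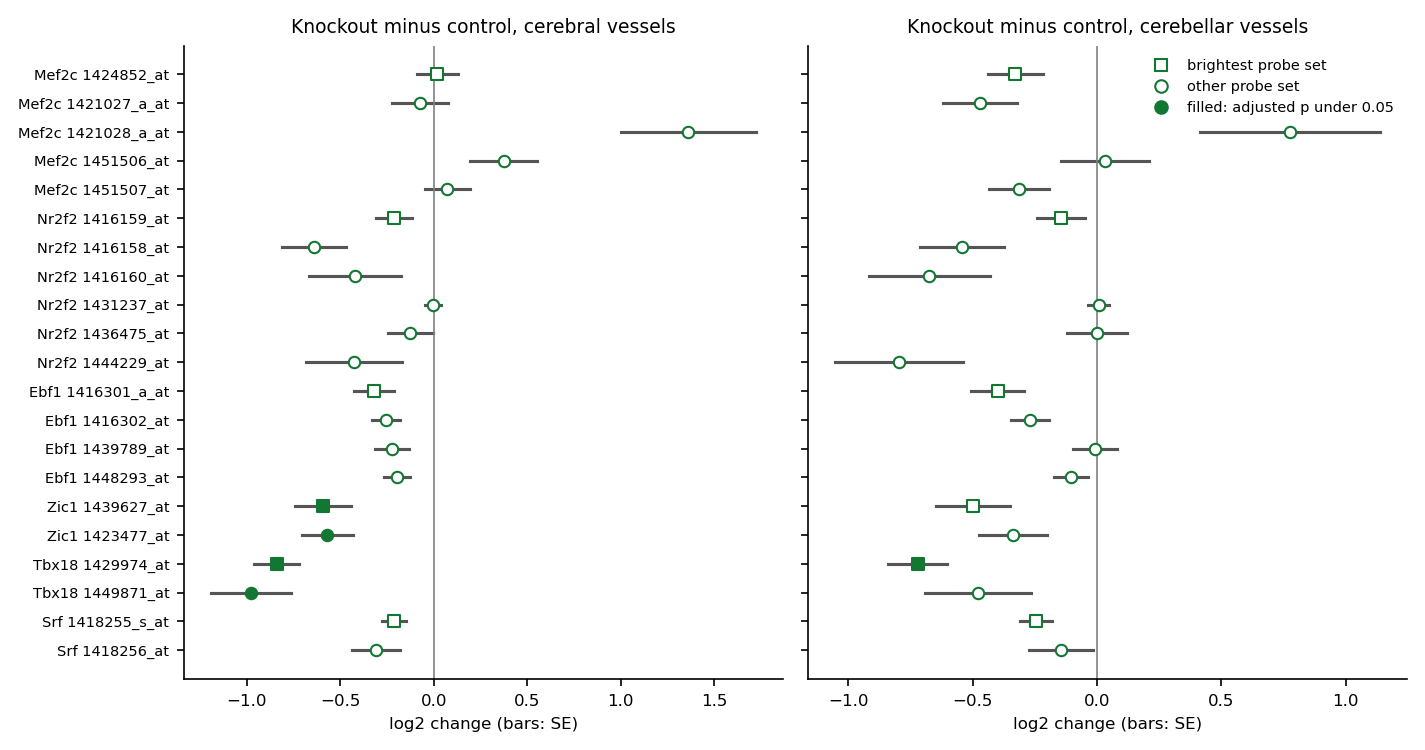
Log2 change, knockout minus control (x axis), of each probe set (y axis) of the 6 members other than Myocd that had several, where it passed the filter on low values, in cerebral (left) and cerebellar (right) fragments; squares are the reported probe sets, circles the others, filled where called, and bars are standard errors. The probe sets of Tbx18, Zic1, Srf and Ebf1 lie on the lower side of 0, while those of Mef2c spread from −0.07 to 1.36 in cerebral fragments.

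The knockout effect was then compared between regions. None of the 10 members was called for a difference (each adjusted p = 0.999), and over all genes 0.0427% were. The estimated difference, cerebellar minus cerebral, ranged from −0.54 for Foxs1 (95% interval −1.35 to 0.26) to 0.40 for Foxd1 (0.07 to 0.72). Foxd1 and Mef2c (−0.35) had unadjusted p-values under 0.05, at 0.0220 and 0.0486. With 3 mice a group these intervals are wide, and they do not show that the effect is equal in both regions.

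Levels also differed between the regions within a genotype. In control mice Foxs1 was the only member called, higher in cerebellar than in cerebral fragments by 1.41 (SE 0.26, adjusted p = 0.0213), or 2.65-fold. Over all genes 2.29% were called, 1.95% as higher. The call was lost without control cerebral replicate 1 (1.39, adjusted p = 0.0761) or 2 (1.25, 0.0583) and without control cerebellar replicate 3 (1.17, 0.0647). In 6 of 10 members every cerebellar array lay above every cerebral array, against 10.9% of all genes: Foxs1, Myocd (0.61), Tbx2 (0.58), Zic1 (0.53), Foxd1 (0.36) and Mef2c (0.27).

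With the mouse as a block, which removes what both regions of a mouse share, 3 further members were called in controls. The adjusted p was 0.0141 for Tbx2 (0.166 without the block), 0.00514 for Zic1 (0.111) and 0.0407 for Mef2c (0.274). With the mouse as a random block instead, Foxd1 was called (adjusted p = 0.0310) and Mef2c was not, while 966 genes were called in all. Tbx18, the pericyte and smooth muscle marker, changed by −0.14 and Srf by −0.02; their groups overlapped and they were not called with or without the block.

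In knockout mice 3 members were higher in cerebellum: Tbx2 by 0.77 (SE 0.19, adjusted p = 0.0379), Foxd1 by 0.76 (SE 0.10, adjusted p = 0.00311) and Zic1 by 0.62 (SE 0.15, adjusted p = 0.0360). Over all genes 6.8% were called, 3.84% as higher. These 3 and Foxs1 did not overlap, as did 12.9% of all genes in that direction. Foxs1 was higher by 0.86 (SE 0.26), with an adjusted p of 0.0756 without and 0.00293 with the mouse as a block. Myocd, 0.61 higher in control cerebellum, differed by 0.14 in knockouts (95% interval −0.38 to 0.65); the difference between these values is the one tested above and was not called. The Tbx2 call was lost in 5 of the 6 runs without 1 knockout array, all but cerebellar replicate 3 (0.65 to 0.87, adjusted p 0.0595 to 0.126). The Zic1 call was lost without cerebral replicate 1 or 3 or cerebellar replicate 1 or 2 (0.47 to 0.68, adjusted p 0.0580 to 0.129).

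Marker lists moved with region as well. Of 11 pericyte markers tested 8 were higher in control cerebellum, with a list median of 0.63, and 10 in knockout cerebellum, with a median of 0.87. Their summed level was 16.5 to 16.6 in control cerebral and 16.86 to 17.01 in control cerebellar arrays, and 16.30 to 16.35 and 16.66 to 16.75 in knockouts; Anpep was at or under the median on all arrays. Of 9 cerebellar neuron markers 2 were higher in control and 5 in knockout cerebellum. Of these 5, Pvalb and Pcp2 were under 3.27 on all cerebral arrays and passed the filter only through knockout cerebellum, where they were high. The list's summed level was 8.88 to 9.16 in control cerebral and 9.0 to 9.09 in control cerebellar arrays. In knockouts it was 8.93 to 9.04 and 9.40 to 9.71, with Cbln3 and Pax6 at or under the median on all arrays. Of 12 fibroblast and meningeal markers 3 and 6 were higher, with summed levels of 14.01 to 14.32, 14.66 to 14.75, 13.82 to 14.30 and 14.50 to 14.68 in the same order of groups and Crabp2 at or under the median throughout. Microglia markers went the other way: 0 of 9 were called in controls, where all 9 were lower in cerebellum (median −0.59), and 8 of 9 were lower in knockout cerebellum (median −1.27), with the summed levels given above. Of 7 astrocyte markers 2 and 3 were higher, with summed levels of 14.76 to 15.12 in control cerebral, 14.76 to 15.09 in control cerebellar, 14.42 to 15.07 in knockout cerebral and 14.88 to 15.25 in knockout cerebellar arrays, and Gfap at or under the median throughout. Of 8 smooth muscle markers and 11 endothelial markers 0 were called between regions in either genotype. The part of these cells in the regional levels of the members was not tested.

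**Figure D4:**
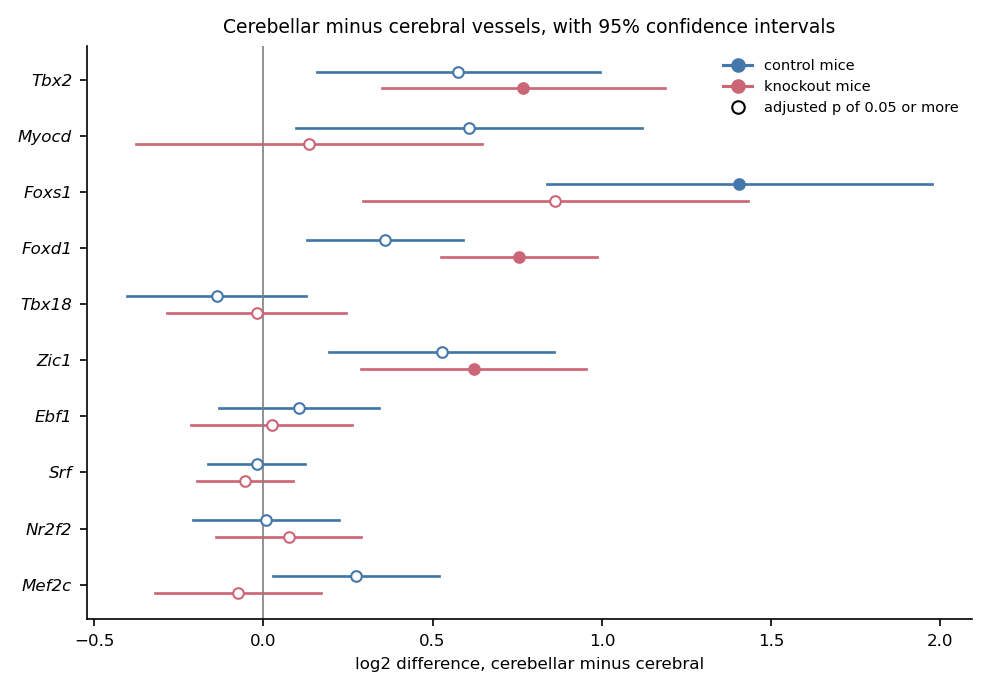
Log2 difference, cerebellar minus cerebral (x axis), of each member (y axis) in control and in knockout mice; points are limma estimates, bars 95% intervals, and the vertical line marks no difference. Foxs1 at 1.41 in controls is the largest difference, and Srf, Tbx18, Nr2f2 and Ebf1 lie near 0 in both genotypes.

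Genes that myocardin and SRF drive in smooth muscle fell with the knockout. Of 20 tested, 14 fell in cerebral and 13 in cerebellar fragments, and 0 rose in either. The list's median was −0.60 and −0.67, beside −0.01 and 0.01 over all genes. The largest falls were in Pln, a regulator of the calcium pump (−2.23 and −2.33), Cnn1, which encodes the thin-filament protein calponin (−2.22 and −2.45), Kcnmb1, a subunit of the calcium-activated potassium channel (−1.72 and −1.48), and Myh11, smooth muscle myosin (−1.70 and −1.78). The cerebral call of Cnn1 was lost without any 1 array but knockout replicate 3 (−2.30 to −1.98, adjusted p 0.0561 to 0.0789). Its cerebellar call was lost without control replicate 2 or 3 or knockout replicate 1 or 3 (−2.52 to −2.04, adjusted p 0.0564 to 0.0841). The calls of Pln, Kcnmb1 and Myh11 were kept in each such run within the regions.

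Early response genes, the other large class of SRF targets, mostly did not pass the test. Of 11 tested, Srf being 1 of them, 1 fell in cerebral fragments, Nr4a1 (−1.42), and 1 in cerebellar fragments, Fosb (−1.57). The Nr4a1 call was lost without any 1 array but control cerebral replicate 2 (−1.56 to −0.99, adjusted p 0.0622 to 0.128). The Fosb call was lost without control or knockout cerebellar replicate 1 or 3 (−1.62 to −1.33, adjusted p 0.0697 to 0.0860). The list's median was −0.21 and −0.22. With no filter on low values 0 genes of the list were called in either region. Between regions the same list was higher in cerebellum for 5 of 11 genes in controls and 7 of 11 in knockouts, with medians of 0.78 and 1.11. Fosb, 1 of those called in both genotypes, was under 3.27 on all cerebral arrays, so its difference is only a bound. It passed the filter only through cerebellar arrays, where it was high, and its regional calls are not separate from the filter.

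Cofactors of SRF and regulators of myocardin showed a median near 0, at 0.01 and −0.01. Of 16 tested, Csrp1 (−0.86) and Csrp2 (−0.35), LIM-domain proteins of smooth muscle, fell in cerebral fragments, and the LIM-domain cofactor Fhl2 rose in both regions, by 0.48 and 1.0. The cerebral call of Fhl2 was lost without any 1 array but control replicate 3 (0.43 to 0.52, adjusted p 0.0704 to 0.108), and that of Csrp1 without control replicate 2 or knockout replicate 1 (−0.84 to −0.78, adjusted p 0.0628 to 0.0673). The myocardin-related factors were not called: Mrtfa changed by 0.20 and −0.18, and Mrtfb by 0.14 and 0.06. Klf4, a repressor of the contractile state, was not called either (−0.15 and −0.02).

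Of 31 listed relatives of the members within their families 24 were tested, and 1 fell in cerebral and 4 in cerebellar fragments. The T-box gene Tbx15 fell in both regions (−1.25 and −1.40) and Foxc1 (−0.50) in cerebellar fragments. The other genes called in cerebellum, Ebf2 and Foxc2, lay near the filter limit of 3.27 and had only a bound in the knockout. Ebf2 ranged from 3.52 to 4.02 on control cerebellar arrays and was under 3.27 on all 9 others; it passed the filter only through the group where it was high, and its level was at least 1.36-fold lower in the knockout. Foxc2 ranged from 3.74 to 4.16 on control cerebellar arrays and was under 3.27 on all 6 knockout arrays, at least 1.61-fold lower; it passed the filter only through controls. With the filter at the 75th percentile of all values the count was 0 in cerebrum and 1 in cerebellum, and the cerebral count ranged up to 6, with array weights. The Foxc1 call was lost without any 1 array but knockout cerebellar replicate 1 (−0.51 to −0.42, adjusted p 0.104 to 0.163). Among 21 other transcription factors of the vessel wall, Hey2 (−1.13 and −1.22) and Heyl (−0.74 and −0.75), both direct targets of Notch signalling, fell in both regions and Prrx1 (−0.64) in cerebrum. Hey1 and Hes1 of the same list were not called in either region. The Heyl call was lost without any 1 array but control replicate 1, in cerebrum (−0.77 to −0.68, adjusted p 0.0574 to 0.0781) and in cerebellum (−0.80 to −0.56, adjusted p 0.0577 to 0.120). That of Prrx1 was lost without control replicate 1 or 2 or knockout replicate 1 or 3 (−0.59 to −0.58, adjusted p 0.0969 to 0.115), and that of Hey2 was kept in each such run.

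Mural cell markers fell in part. Of 11 pericyte markers 7 fell in cerebral and 6 in cerebellar fragments, led by Ndufa4l2 (−1.55 and −1.29), Art3 (−1.43 and −1.06), Atp13a5 (−1.20 and −0.88) and Higd1b (−0.97 and −0.80). Not called in either region were Rgs5 (−0.04 and −0.09), Kcnj8 (−0.10 and −0.03), Abcc9 (0.02 and −0.10) and Vtn (−0.15 and −0.08). The remaining markers tested, Pdgfrb, Cspg4 and Rgs4, fell in cerebral fragments. Widely used pericyte markers were thus found both among the genes that fell and among those not called. Of 8 smooth muscle markers, all of which are also in the myocardin list, 6 fell in each region, so this count repeats part of that list. Their summed levels were 15.77 to 15.98 against 15.09 to 15.31 in cerebral and 15.92 to 16.19 against 15.26 to 15.41 in cerebellar arrays. Of 11 endothelial and 11 arterial endothelial markers 0 were called in either region, and the endothelial summed level was 17.02 to 17.09 on control and 16.98 to 17.21 on knockout arrays. Of 9 cerebellar neuron markers Pvalb (1.85), Calb1 (1.45) and Gabra6 (1.43) rose in knockout cerebellar fragments; the Calb1 call was lost without any 1 array but knockout replicate 2 (1.09 to 1.61, adjusted p 0.0557 to 0.104). Pvalb was above 3.27 on 1 of 3 control cerebellar arrays and on 0 cerebral arrays, so its change is not exact. It passed the filter only through knockout cerebellar fragments, where it was high, so its call is not separate from the filter. The part of a changed number of mural cells in the members' falls was not tested.

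**Figure D5:**
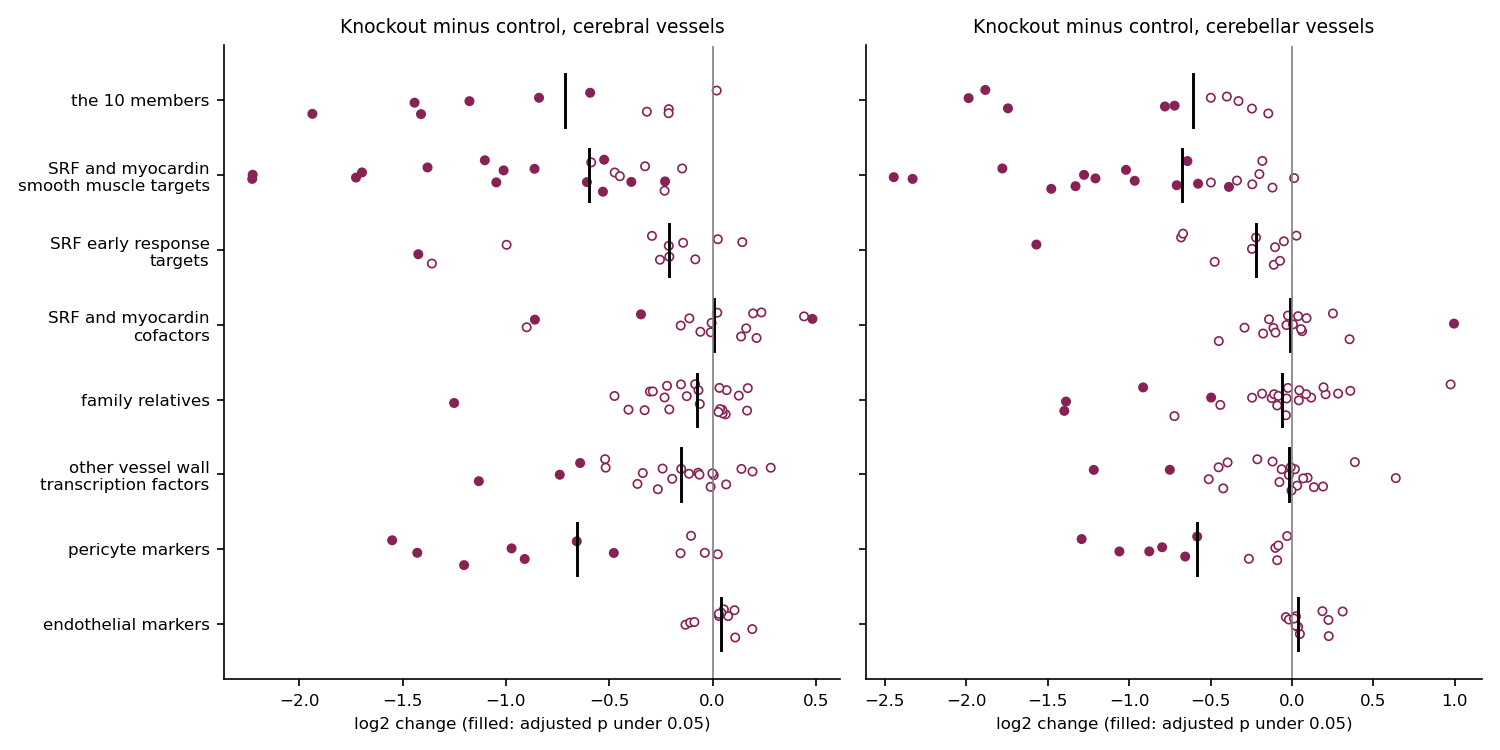
Log2 change, knockout minus control (x axis), of the 10 members and of every tested gene in 7 gene lists (y axis), in cerebral (left) and cerebellar (right) fragments; points are genes, filled where called, and the vertical bar of each list is its median. The smooth muscle genes driven by myocardin and SRF have a median of −0.60 in cerebral and −0.67 in cerebellar fragments, and the endothelial markers 0.04 in both.

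For each member that fell on mouse means, the genes whose values followed it most closely over the 12 arrays were found by Pearson's r. These values are a description: the arrays share 6 mice and the genotype groups set much of each r. Myocd was nearest to Thsd4 (r = 0.980) and Synpo2l (0.972), and Tbx18 to Susd5 (0.983) and Mn1 (0.975). Tbx2 was nearest to Casq2 (0.987) and S1pr3 (0.986), and Foxd1 to Enpep (0.987) and Btnl9 (0.977). Foxs1 was nearest to Gm13889 (0.964) and Lclat1 (0.963).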

How the data were processed

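RNA of 12 samples was measured, 1 array each. The deposited unit is the log2 value of a probe set. The authors used GCRMA 2.32.0, per the submitters' processing notes; it corrects background, normalizes and summarises probes, and it compresses low values, so changes of dim genes may be understated. No genome build of the probe sets is given in the sources used here. Of 45101 probe sets, 34945 named 1 gene with control probe sets left out, 932 named several and 9211 none. Probe sets with at least 3 of 12 arrays above the median of all values (3.27) were kept, and the one with the highest mean represented its gene, giving 11716 genes.

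Tests used limma 3.58.1 in R 4.3.3 (lmFit, eBayes, two-sided) on 4 group means over 12 arrays with 8 residual degrees of freedom, or on 6 mouse means with 4. P-values were adjusted by Benjamini-Hochberg over all genes, with a threshold of 0.05. The fit of the knockout comparisons was tested on simulated data. Those data had independent arrays, so the test did not cover the likeness of both regions of a mouse or the regional comparisons. The number of arrays limits the precision. Replicate numbers were taken to pair the regions of a mouse. Between regions, same-numbered deviations from group means correlated at 0.371 to 0.547 in control and 0.573 to 0.705 in knockout mice. Differently numbered arrays were not compared, so these values do not settle the pairing. The genes named are Notch3, the 10 members, up to 4 called genes with the largest change per list and the other pericyte markers called in cerebrum. Also named are 2 nearest genes per member called on mouse means, and uncalled genes of a list where the text says so, picked with their values known. The members and gene lists were chosen with earlier results of these data known. Alternatives were the filter, probe set, scaling, variance model, arrays fitted, blocks, array weights and each array left out. Promoter sequences are from RefSeq, GRCm38.p6.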

Additional observations from a re-analysis of the deposited data

How the results depend on the processing

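Over the alternatives run for the members, 761 values kept their direction and side of the threshold, 31 gained a call, 33 lost one and 13 changed sign. All members were in this tally for the knockout comparisons. For the other comparisons it held only members with an unadjusted p under 0.05 and those with the lowest and highest change of the rest. The sign changes were in Mef2c and Nr2f2, neither of which was called in the knockout comparisons as reported. Mef2c in cerebrum became −0.073 with probe set 1421027_a_at and −0.062 with array weights, and ranged from −0.068 (without knockout replicate 1; also negative without control replicate 3) to 0.086 without 1 array. In cerebellum it became 0.78 (1421028_a_at) and 0.033 (1451506_at), on mouse means 0.14 (mean of probe sets), 1.07 and 0.20 (the same 2 probe sets), and between regions −0.055 in controls (1421027_a_at); in knockouts it ranged from −0.17 to 0.013 without 1 array. Nr2f2 became 0.0059 in cerebellum and 0.0020 on mouse means with its flat probe set 1431237_at. The dim probe sets 1425808_a_at (Myocd) and 1457441_at (Ebf1) were not run. The members called in cerebellum and on mouse means, 5 each, were 3 with a filter at the 75th percentile of all values, which leaves out Foxs1 and Myocd, and 8 with array weights. Those added by array weights were Srf, Ebf1 and Zic1. Calls over all genes in these comparisons moved by no more than 1.5 times under either setting. The 1 member called between regions in controls became 0 without a filter, with that filter or with only the arrays compared, and 4 with array weights or with the mouse as a fixed or random block. The 3 called in knockouts became 1 without a filter or with only the arrays compared. Over all genes the cerebral calls (748) were 310 with only the arrays compared and 1415 with array weights. Calls on mouse means (472) were 312 without a filter. Regional calls in controls (268) were 160 without a filter, 915 and 966 with the mouse as a fixed or random block and 1078 with array weights. In knockouts (797) they were 508 without a filter, 322 with only the arrays compared, and 1723 and 1947 with the blocks. Calls of a difference between regions (5) were 2 without a filter and 0 with the higher filter. Without 1 array the calls ranged from 439 (without knockout cerebral replicate 3) to 870 in cerebrum, 302 (without knockout cerebellar replicate 3) to 397 in cerebellum, 237 (without knockout mouse 3) to 473 on mouse means, 79 (without control cerebellar replicate 2) to 239 and 366 (without knockout cerebral replicate 1) to 1099 between regions in controls and knockouts, and 1 to 20 for the difference. The members called ranged from 5 to 7, 5 to 6, 4 to 6, 0 to 1 and 1 to 3 in the same order of comparisons. Across genotypes no label says that the replicate numbers pair the mice. Same-numbered deviations correlated at 0.194, 0.180 and 0.0065 in cerebrum and 0.259, 0.0313 and −0.166 in cerebellum. Differently numbered arrays were not compared, so these values do not decide whether same-numbered arrays share anything. With the number as a replicate block the calls were 1127 in cerebrum, 627 and 1346 between regions, and the members called were 9 in cerebellum and 2 between regions in controls. In cerebellum the members added were Srf, Mef2c, Ebf1 and Zic1, while calls over all genes moved by no more than 1.5 times. The mouse as a fixed block was chosen after seeing the data. Settings other than leaving out an array also moved list counts by over 1.5 times. Early response genes (1 in cerebrum, 1 in cerebellum, 0 on mouse means) ranged from 0 to 3, 0 to 2 and 0 to 1. Family relatives (1, 4 and 3) ranged from 0 to 6, 1 to 5 and 0 to 3, and other vessel wall factors (3, 2 and 2) from 1 to 5, 1 to 4 and 1 to 3. SRF cofactors fell from 1 to 0 or rose to 2 in cerebellum, and fell from 2 to 1 on mouse means. Values at or under the median of all values, such as those of Ebf2 and Foxc2 in the knockout, are only bounds.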
